A study of Mus musculus with 49 samples.

Results

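The genes described here are 6 major urinary protein genes of the mouse, Mup3, Mup4, Mup5, Mup18, Mup20 and Mup21. They are the rows of the deposited table of unique molecular identifier (UMI) counts whose Ensembl identifier carries one of these symbols, and they make up 6 of its 46078 rows. The table holds 21 Mup protein-coding rows in all. The rule lists them by symbol and sets no threshold on a measured value.

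Major urinary proteins are small lipocalins, barrel-shaped carriers with a pocket for a hydrophobic ligand, which hepatocytes secrete into the blood and the kidney passes into urine. There they bind and slowly release volatile pheromones. In mouse liver they are among the most abundant transcripts, are higher in males, and depend on pulses of growth hormone together with thyroid hormone, androgen and glucocorticoid. Mup20 encodes darcin, a protein pheromone of males, and Mup4 and Mup5 are also known from nasal and glandular tissues.

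Hepatocytes of wild-type C57BL/6J mice, 10 weeks old, were isolated with collagenase and cultured as a monolayer with EGF at 20 ng/mL, where they turn into expandable cells named dediHeps. RNA was read by CEL-Seq2, which counts UMIs at the 3′ ends of transcripts, in 49 libraries of 16 groups. The groups are freshly isolated hepatocytes (FH, n = 3), hepatocytes plated for 3 h or for 1, 2, 4, 7 or 14 days (n = 3 each), hepatocytes given 0.3 µM verteporfin, or DMSO as its solvent control, throughout 1 week of culture (n = 2 each), and dediHeps in monolayer (n = 5). Further groups are dediHep aggregates from low-attachment plates (n = 3), spherical organoids of dediHeps in Matrigel (SOs, n = 3), budding organoids of dediHeps transfected with Cdx2 (BOs, n = 3), CLiP cells in monolayer (n = 3), SOs of intestinal progenitor cells from fetal intestine of E13.5 embryos (FIPC-SOs, n = 3) and BOs from adult intestine (ISC-BOs, n = 4). The methods name male mice as donors, and nothing in the labels ties the numbered libraries of the time course to separate animals, so p-values there measure only the spread between these libraries. Passaged dediHeps, CLiPs and organoids are cultures expanded from their donors.

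The libraries held 861047 to 3872936 counts each (median 1976760), and a count of 3 in a library is 0.775 to 3.48 CPM. Levels below are CPM, the count divided by the library total and scaled to a fixed depth, adjusted by TMM over all 49 libraries. They count 3′ ends and are not divided by transcript length. A count of 0 allows up to 3 counts of the library, and this limit covers counting error only. Hepatocyte markers (8 genes, among them Alb and Ttr) summed to 20043 to 24688 CPM in FH, 1069 to 4775 in dediHeps and 8936 to 13199.8 in aggregates. All 21 libraries of the time course carry counts of Y-linked genes, but 13 libraries of other groups hold Xist and at most 1 Y-linked count, and 4 hold neither. These include both verteporfin and both DMSO libraries (Xist), and the groups of dediHeps, aggregates, SOs, BOs, CLiPs, FIPC-SOs and ISC-BOs are mixed in this respect. An SO library (replicate 1) with Y-linked counts shares its culture name with a monolayer and an aggregate that hold Xist and none.

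In GENCODE M21 (GRCm38) the 6 genes lie on the minus strand of chromosome 4 within the Mup cluster. Their spans are chr4:59956804-59960710 for Mup4 (ENSMUSG00000041333), chr4:61670177-61674136 for Mup18 (ENSMUSG00000078674), chr4:61831319-61835233 for Mup5 (ENSMUSG00000058523), chr4:62050234-62054158 for Mup20 (ENSMUSG00000078672), chr4:62083476-62087342 for Mup3 (ENSMUSG00000066154) and chr4:62147932-62150863 for Mup21 (ENSMUSG00000066153). The last 60 coding bases of each are shown to compare the 6 genes. In all but Mup21 they lie 271 or more bases before the annotated transcript end. Reads at the 3′ end may therefore not cover them. Each stretch ends with the stop codon and spans 2 exons, and capitals mark the bases that differ from the most frequent base among the 6 genes.
Mup3: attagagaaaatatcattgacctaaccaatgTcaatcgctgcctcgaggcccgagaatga
Mup4: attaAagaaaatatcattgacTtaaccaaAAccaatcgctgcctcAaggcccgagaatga
Mup5: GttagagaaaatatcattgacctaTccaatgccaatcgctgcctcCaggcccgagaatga
Mup18: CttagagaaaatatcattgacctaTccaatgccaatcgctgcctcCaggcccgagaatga
Mup20: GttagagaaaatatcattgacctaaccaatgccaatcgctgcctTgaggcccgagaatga
Mup21: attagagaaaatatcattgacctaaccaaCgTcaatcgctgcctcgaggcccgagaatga
They lie within chr4:62084568-62084792 (Mup3), chr4:59957865-59958089 (Mup4), chr4:61832362-61832585 (Mup5), chr4:61671240-61671462 (Mup18), chr4:62051292-62051515 (Mup20) and chr4:62147952-62148175 (Mup21). The stretches differ from the most frequent bases at 1 base in Mup3, 2 each in Mup20 and Mup21, 3 each in Mup5 and Mup18 and 5 in Mup4.

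Over the whole coding sequence Mup3 and Mup21 were the most alike of the 6, with 95.0% identity, followed by Mup4 and Mup5 with 92.3%. The remaining pairs had 83.8% to 91.6%. Mup18 and its non-member paralog Mup16 were 99.3% identical, with 4 differences. Of the 251 stretches of 50 bases in the last 300 bases of each annotated transcript, 80.1% of those of Mup18 recurred in another Mup transcript, against 31.9% for Mup5, 25.9% for Mup4, 17.5% for Mup21, 7.2% for Mup20 and 6.4% for Mup3. The annotated Mup21 transcript ends 20 bases after its stop codon, whereas the others run on for 271 to 399 bases.

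The counts of Mup4 and Mup5, and of Mup16 and Mup18, ran together. Those of Mup3 and Mup21 did not, with 946 to 1731 against 14 to 28 counts at 4 days. Mup5 had 0.881 to 1.09 times the count of Mup4 (median 1.01) in the 16 libraries where both reached 30 counts, and Mup18 had 0.905 to 1.09 times that of Mup16 (median 0.999) in 19 libraries. Mup20 and Mup18 did not keep 1 ratio, with Mup20 at 0.938 to 8.4 times the count of Mup18 in 18 libraries. Reads of Mup4 and Mup5, and of Mup18 and Mup16, may be split between the paralogs, so their separate levels are uncertain. Mup3 and Mup20 had the lowest shares of recurring stretches.

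**Figure D1:**
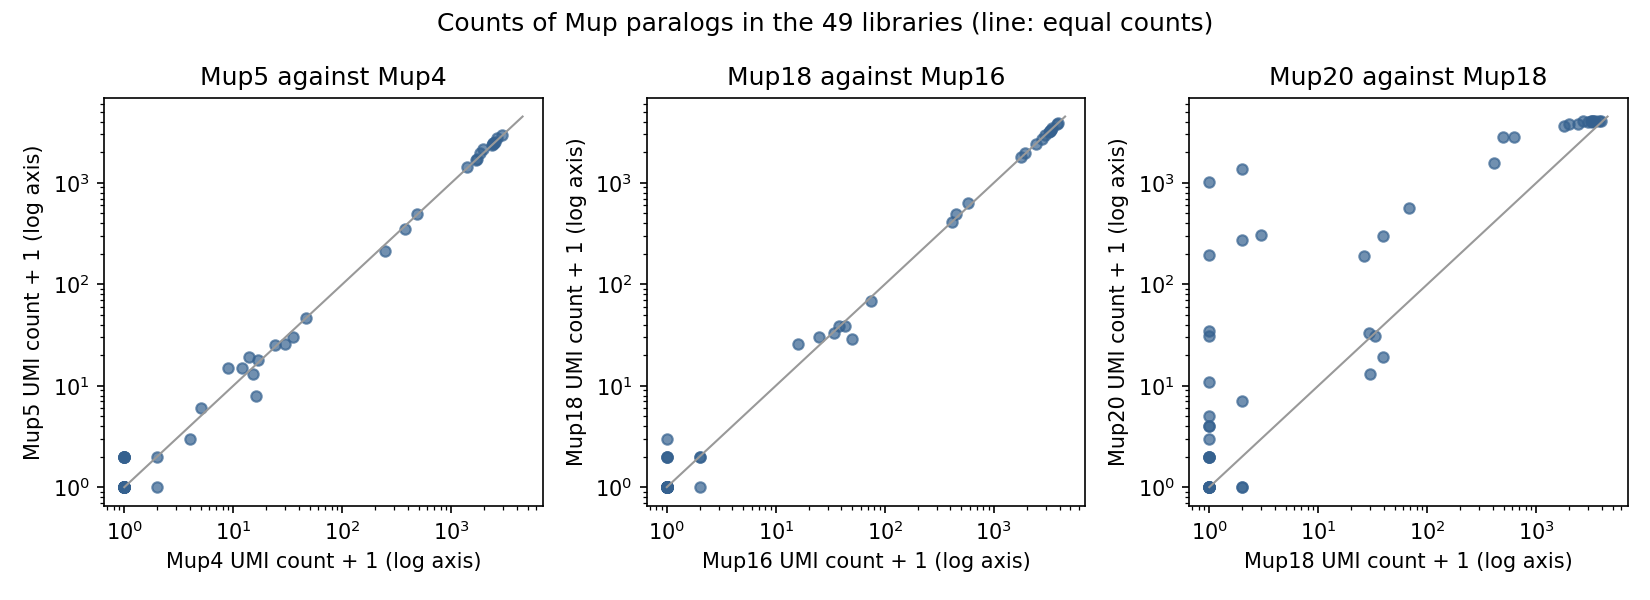
UMI counts of 3 pairs of Mup genes in the 49 libraries, each axis on a log scale after adding 1; each point is a library and the line marks equal counts. Mup5 against Mup4 and Mup18 against Mup16 follow the line, while Mup20 against Mup18 departs from it.

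RefSeq (GRCm38.p6) holds promoter sequence for Mup3, Mup4, Mup18 and Mup21. The 60 bases ending in a TATATAA box are shown, since the 4 genes have this box in common, and capitals mark it.
Mup3: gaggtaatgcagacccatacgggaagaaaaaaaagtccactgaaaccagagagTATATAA
Mup4: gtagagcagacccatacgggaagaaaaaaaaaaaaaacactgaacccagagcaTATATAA
Mup18: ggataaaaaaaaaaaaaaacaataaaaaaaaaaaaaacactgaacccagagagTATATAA
Mup21: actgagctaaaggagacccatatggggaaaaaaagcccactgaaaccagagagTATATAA
They lie on the minus strand at chr4:62087322-62087381, chr4:59960690-59960749, chr4:61674116-61674175 and chr4:62150843-62150902. The box begins 11, 29, 28 and 8 bases before the RefSeq start, respectively. GENCODE M21 places the starts further upstream, so that its gene spans given above include the box in all 4. It occurs, on either strand, in 3.04% of 32851 mouse promoters over the same 250 bases. The letters TTCNNNGAA, the core bound by STAT factors, were found in none of these 4 windows on either strand and in 7.02% of all promoters. Over 180 bases the promoters of Mup3 and Mup21 were 90.2% identical, those of Mup3 and Mup4 87.4% and those of Mup4 and Mup21 82.3%, while Mup18 reached 55.3% to 69.3% with the other 3.

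In fresh hepatocytes each of the 6 genes was abundant. Mup20 was at 4728, 5534 and 4159.6 CPM in the 3 FH libraries (mean 4807 ± 691, SD). Mup3 was at 4001, 4981 and 4036 CPM (4339 ± 556), and Mup18 at 3837, 3689 and 3405 CPM (3643 ± 219). These 3 genes were the upper ones, and the libraries of Mup20 and Mup3 overlapped.

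Mup21 was at 2514, 3579 and 3010.1 CPM (3034 ± 533) in FH. Mup5 was at 2305, 3199.8 and 3061 CPM (2855 ± 481), and Mup4 at 2169.5, 3219 and 2999 CPM (2796 ± 553). The levels of Mup21, Mup5 and Mup4 did not differ beyond the spread of the libraries. Among the other 15 Mup rows the lowest count in an FH library was 267 (Mup6, named after its values were seen), the median 3831 and the highest 3942, and the highest mean levels were those of Mup15 (4600.0 ± 595 CPM), Mup14 (4594 ± 583 CPM) and Mup1 (4594 ± 590 CPM).

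These levels stand against a ceiling. A UMI of 6 bases has 4096 sequences, and 4096 was also the highest count of any gene in any library. Mup20 counts were 4008, 4042 and 4031 in FH, 98.3% of that number on average, against 89.0% for Mup3, 75.2% for Mup18, 62.4% for Mup21, 59.1% for Mup5 and 57.7% for Mup4. Mup20 stood above 95% of the limit in 9 libraries, all fresh or cultured for at most 1 day. With counts corrected for molecules that share a UMI, the mean FH level was 17272 CPM for Mup20, 9724 for Mup3, 5877 for Mup18, 4166 for Mup21, 3824 for Mup5 and 3703 for Mup4. The order of the genes was kept, and the gaps between them were wider.

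**Figure D2:**
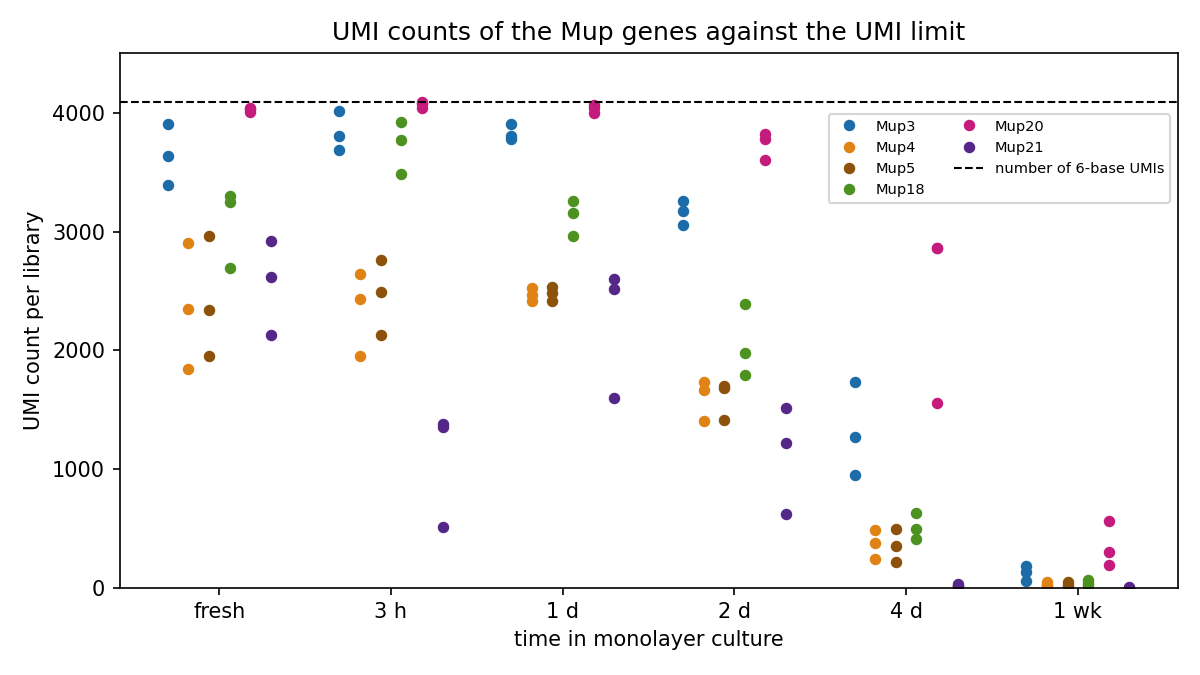
UMI counts of the 6 Mup genes per library (vertical axis, linear) by time in monolayer culture; each point is 1 of 3 libraries per time and the dashed line marks the 4096 sequences of a 6-base UMI. Mup20 lies at the line in fresh cells, at 3 h and at 1 day, and Mup3 just below it.

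The time course asks when hepatocytes plated as a monolayer lose these transcripts. In counts not corrected for the UMI limit, all 6 were near or at their fresh level at 3 h except Mup21. All 6 were at 35.3% to 42.6% of the fresh level at 1 day and at or under 2.65% after 1 week. A gene was called lower where the quasi-likelihood test of edgeR gave an FDR below 0.1 and it changed by more than 2 on the log2 scale. None of the 6 was called at 3 h or 1 day by edgeR or DESeq2, 4 were called at 2 days (Mup4, Mup5, Mup18 and Mup21), and all 6 at 4 days, 1 week and 2 weeks. Of all 12443 genes tested, 3.85%, 10.9%, 12.1%, 12.4%, 12.8% and 15.3% were called lower than FH at these 6 times, in order. In these bulk samples, fewer hepatocytes and less RNA per hepatocyte cannot be told apart. Marker sums moved as well. The hepatocyte sum was 20043 to 24688 CPM in FH and 2238 to 4097 CPM at 1 week, with all 8 markers detected. Sums of 6 markers each were 19.2 to 106 and 837 to 1082 CPM for cholangiocytes, 186 to 294 and 2.61 to 23.9 CPM for sinusoidal endothelium, 49.5 to 174 and 1.31 to 42.6 CPM for Kupffer cells and leukocytes, and 68.1 to 127 and 12.4 to 42.9 CPM for stellate cells and fibroblasts. Krt19 and Epcam were at 0 in FH. The part of these markers in the Mup values was not tested.

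**Figure D3:**
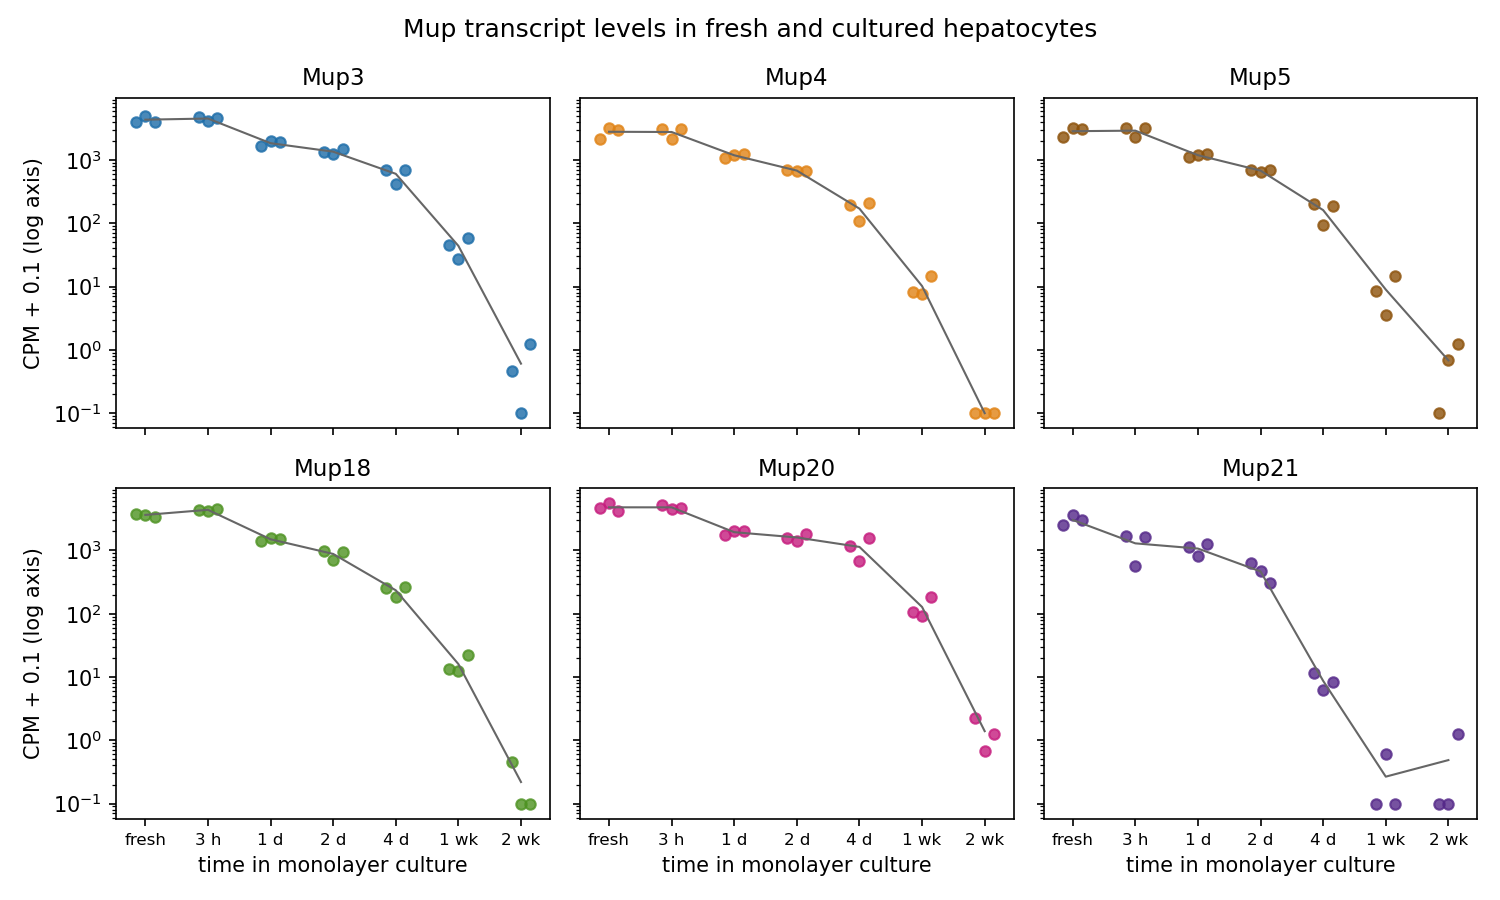
CPM plus 0.1 (vertical axis, log scale) of each Mup gene in fresh hepatocytes and after 3 h to 2 weeks in monolayer culture; points are the 3 libraries of each time and the line joins their means. Mup21 is the first to reach a few CPM, at 4 days (mean 8.59 CPM), when Mup20 is still at a mean of 1137 CPM.

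At 3 h Mup21 stood apart from the other 5. It was at 1721, 558 and 1607 CPM, against 2514 or more in every FH library, and the groups did not overlap. The log2 fold change was -1.25 (SE 0.41, edgeR FDR = 0.0506), which passed the FDR but not the fold threshold. Changes of Mup3, Mup4, Mup5 and Mup20 lay between -0.03 and 0.04, and that of Mup18 was 0.25 (SE 0.26, edgeR FDR = 0.557), with 4157 to 4571 CPM at 3 h above every FH library. How many of all genes lie below or above every FH library at 3 h was not counted. At an unadjusted p under 0.05 Mup21 was the 1 member that passed, and DESeq2 also called none. Mup20, Mup3 and Mup18 stood at 99.3%, 93.7% and 91.0% of the UMI limit at 3 h, which can hide a rise. UMI-corrected, Mup18 was at 173% of its fresh level (log2 fold change 0.82, SE 0.32, edgeR FDR = 0.0935). Mup20 was at 125%, Mup3 at 123%, Mup5 at 98.8%, Mup4 at 94.4% and Mup21 at 31.1%, and none was called.

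At 1 day all 6 passed the FDR (highest edgeR FDR 0.00599), as did 22.2% of all genes in the lower direction, with log2 fold changes of -1.33 to -1.60, short of the fold threshold. Mup20 was at 1751, 2050 and 2034 CPM, below every FH library. Mup3 was at 1638, 1966 and 1935 CPM and Mup21 at 1129, 806 and 1279 CPM, both below every FH library too. The share of all genes for which this holds at 1 day was not counted. The raw counts overlapped those of FH in Mup4, with 2526, 2416 and 2464 UMIs against 1839, 2351 and 2906 in FH, and in Mup21, with 2604, 1601 and 2517 against 2131, 2614 and 2917. Mup20 had 4038, 4071 and 4001 UMIs, near the limit as in FH. The libraries are larger at 1 day, with TMM-adjusted totals of 1967227 to 2306014 against 730369 to 969084 in FH and at 3 h. Scaled by the library total alone, the log2 fold changes were -0.65 to -0.92, and the median over all genes moved by 0.64 to 0.61, so that the Mups lay below the median of all genes under both scalings. Mup5 did not pass the FDR with that scaling (edgeR FDR = 0.111). With all 49 libraries in 1 fit Mup4, Mup5 and Mup20 did not pass it (edgeR FDR = 0.185, 0.156 and 0.344).

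From 3 h to 1 day none was called in either direction by edgeR or DESeq2, where 24.2% of all genes were, although 5 of the 6 passed the FDR, as did 26.2% of all genes in the lower direction. Mup18 had the largest difference, -1.62 (SE 0.26, edgeR FDR = 4.65e-05), and Mup21 the smallest, -0.35 (SE 0.40, edgeR FDR = 0.498). From 1 to 2 days none was called by edgeR or DESeq2, against 1.86% of all genes. With the FDR alone 1 passed, against 3.75% of all genes. An unadjusted p under 0.05 was found for 4 of the 6, and the share of all genes under that rule was not computed.

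At 2 days Mup4 was at 688, 672 and 681 CPM (log2 fold change against FH -2.12, SE 0.30, edgeR FDR = 1.29e-05). Mup21 was at 625, 473 and 301 CPM (-2.78, SE 0.43, edgeR FDR = 2.18e-05). Mup20 was at 1579.6, 1399 and 1837 CPM, with a change of -1.66 (SE 0.31, edgeR FDR = 0.000158) that stayed under the fold threshold, as did Mup3 with -1.76 (SE 0.30, edgeR FDR = 6.33e-05). All 6 genes were below every FH library, and the share of all genes for which this holds was not counted. These calls lie close to the fold threshold. With UMI-corrected counts all 6 were called at 2 days, from -2.15 (Mup3) to -3.16 (Mup21), with 11.9% of all genes called lower. With the library total alone none was called, against 7.77% of all genes, with changes from -0.85 (Mup20) to -1.98 (Mup21) where the median of all genes stood at 0.83, and all 6 had an FDR below 0.1 there too. Without FH replicate 2 the change of Mup4 was -1.99, and without replicate 2 of 2 days that of Mup18 was -1.97.

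Between 2 and 4 days Mup21 fell the most. It had 28, 14 and 15 counts at 4 days (11.4, 6.14 and 8.23 CPM), after 1515, 1218 and 618 at 2 days. The log2 fold change over this interval was -5.74 (SE 0.51, edgeR FDR = 6.58e-07). Mup5 also fell, from 694, 658 and 689 to 200.1, 93.9 and 190.4 CPM (-2.07, SE 0.37, edgeR FDR = 0.00139), which was 2 of 6 members called against 1.27% of all genes. Mup4 (-1.99) and Mup18 (-1.90) passed the FDR just under the fold threshold, Mup3 was at -1.16, and Mup20 at -0.49 (SE 0.30, edgeR FDR = 0.653). With the FDR alone 5 members were called (2.02% of all genes), with UMI-corrected counts 4 (1.30%), with the replicate block 3 (1.25%) and with all 49 libraries in 1 fit 1 (0.659%). The count depended on single libraries too: 1 was called without replicate 2 of 4 days, where Mup5 was at -1.80, and 4 without replicate 3 of 4 days or without replicate 2 of 2 days.

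At 4 days the genes were spread widely as shares of their fresh level, at 0.283% for Mup21, 5.65% for Mup5, 6.1% for Mup4, 6.44% for Mup18, 13.9% for Mup3 and 23.7% for Mup20. Mup20 was at 1162, 681 and 1569 CPM, below every FH library (log2 fold change -2.16, SE 0.31, edgeR FDR = 7.31e-06). The share of all genes below every FH library at 4 days was not counted. Mup3 was at 704, 415 and 697 CPM (-2.92, SE 0.31, edgeR FDR = 1.05e-07). The call of Mup20 rested on replicate 2 of 4 days, without which the change was -1.89, and it was lost with the library total alone (-1.28) and with all 49 libraries in 1 fit (-2.08, edgeR FDR = 0.101). UMI-corrected shares of the fresh level were 8.69% for Mup20, 6.2% for Mup3 and 3.48% to 3.94% for Mup4, Mup5 and Mup18, and 0.168% for Mup21, so Mup20 stayed the highest and Mup21 the lowest while the others drew together. The differences between the genes in this respect were not tested.

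All 6 were called lower at 1 week than at 4 days, against 0.932% of all genes. With all 49 libraries in 1 fit the call of Mup20 was lost (-3.15, edgeR FDR = 0.154). Mup20 was at 106, 93.2 and 184 CPM at 1 week, and Mup3 at 45.4, 26.9 and 59.4 CPM. Mup18 was at 13.4, 12.5 and 21.9 CPM, Mup4 at 8.09, 7.48 and 14.7, and Mup5 at 8.44, 3.49 and 14.7. Mup21 had 0, 1 and 0 counts. Against FH, whose counts the UMI limit compresses, this is 35.7-fold lower for Mup20, 93.1-fold for Mup3, 221-fold for Mup18, 266-fold for Mup4 and 297-fold for Mup5. Mup21, with 1 count against 7662, was 23801-fold lower with an exact 95% counting interval of 4271 to 940210.3. As UMI-corrected shares of the fresh level, Mup20 was at 0.642%, Mup3 at 0.378%, Mup18 at 0.225%, Mup4 at 0.225% and Mup5 at 0.191% at 1 week, against 2.65%, 1.01%, 0.436%, 0.361% and 0.311% uncorrected. The share of Mup20 among the counts of the 6 genes was 20.1% to 24.2% in FH, 45.9% to 53.3% at 4 days and 58.4% to 64.7% at 1 week. UMI-corrected, it was 32.8% to 42.0%, 49.4% to 63.5% and 59.1% to 65.2%.

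At 2 weeks the transcripts were at the detection limit. Mup20 had 6, 1 and 1 counts, 3184-fold lower than FH. Mup4 had none, at least 4988-fold lower (3 counts over the group as the floor). The other 4 genes had 1 or 2 counts in the group. From 1 to 2 weeks 5 of the 6 were called lower, against 1.04% of all genes (edgeR FDR at most 0.00111), whereas Mup21 had 1 count at each time. With all 49 libraries in 1 fit the call of Mup5 was lost (-4.35, edgeR FDR = 0.102). The depth of 861047 counts in replicate 3 of 2 weeks, the lowest of the series, puts 3 counts there at 3.48 CPM.

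DediHeps in monolayer had almost no counts of these genes, and all 6 were called lower than in FH, against 12.6% of 11276 genes tested. All 6 passed the low-count filter through FH alone, and a gene kept in that way had to differ. Mup20 had 0, 0, 10, 0 and 3 counts in the 5 cultures, which is 4283-fold lower than FH, or 0.0185% of the fresh level. This was 0.00424% with UMI-corrected counts and 0.00738% without replicate 3, which holds 10 of the 13 counts. Mup3 had 2 counts in all, Mup4 and Mup5 1 each, and Mup18 and Mup21 none, which is at least 14204-fold lower for Mup18 and at least 11771-fold for Mup21. In the 3 dediHep libraries with Y-linked counts alone, all 6 were called as well, against 12.9% of all genes, and again passed the filter through FH.

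Aggregates ask whether dediHeps regain hepatocyte transcripts in 3-dimensional culture. Mup20 returned in all 3, with 34, 269 and 1012 counts (27.4, 117 and 515 CPM), where the 5 monolayers lay between 0 and 3.02 CPM. The groups did not overlap, and the 3 aggregates spanned a wide range among themselves (219.7 ± 259.5 CPM). The log2 fold change was 7.64 (SE 1.09, edgeR FDR = 0.00193), a 216-fold higher summed level. Replicate 3 held 1012 of the 1315 counts in that sum. Mup20 was the 1 member that passed the low-count filter here, and 4.39% of the 11265 genes tested were called higher. It passed through its aggregate counts, and a gene kept in that way had to differ. In the 3 monolayers of the same cultures as the aggregates it had no count. The hepatocyte marker sum was higher in aggregates too (8936 to 13199.8 against 1069 to 4775 CPM) and the cholangiocyte sum lower (308 to 564 against 1062 to 1690.2 CPM), and their part was not tested.

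The other members were low in aggregates. Mup4 had 3, 4 and 34 counts and Mup5 2, 5 and 29, while each had 1 count in the 5 monolayers. Mup21 had 14, 5 and 8 counts, with the highest in replicate 1, where Mup20, Mup4 and Mup5 were highest in replicate 3. Mup3 had 0, 3 and 16 counts against 2 in the monolayers, and Mup18 a single count. Aggregates lay above every monolayer for Mup20, Mup4, Mup5 and Mup21 (3 of 3), for Mup3 in 2 of 3 and for Mup18 in 1 of 3. How many of all genes separate aggregates from monolayers in this way was not counted. An exact two-sided permutation test compared the mean CPM over the 56 splits of 3 against 5 libraries. For Mup20, Mup4, Mup5 and Mup21 the permutation test gave p = 0.0179 each, the smallest p this design allows. The permutation test gave p = 0.107 for Mup3 and p = 0.375 for Mup18. These values are unadjusted over the 6 genes, and the library total gave the same ones. The test does not use the pairing of the 3 aggregates with 3 of the monolayers by culture.

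Summed over the group, Mup4 was 87.4-fold higher than in monolayers (exact 95% counting interval 14.8 to 3533), Mup5 76.7-fold (12.9 to 3112) and Mup3 20.2-fold (4.88 to 179). Aggregate replicate 3 held 34 of the 41 counts of Mup4, 29 of the 36 of Mup5 and 16 of the 19 of Mup3. Mup21 was at least 19.2-fold higher. Mup18 allows no fold. Where no low-count filter was applied, or all 49 libraries entered 1 fit, 5 members were called higher (all but Mup18), against 3.75% and 5.31% of all genes. With the libraries that carry Y-linked counts alone (1 aggregate against 3 monolayers, a comparison added after the data were seen in which the lone aggregate is taken to vary like the monolayers), Mup4 (6.59, edgeR FDR = 0.0861) and Mup20 (8.31, edgeR FDR = 0.012) were called, against 1.99% of all genes.

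Against FH the aggregates remained far lower, and all 6 were called lower, where 9.78% of 9544 genes were. All but Mup20 passed the low-count filter through FH alone, and a gene kept in that way had to differ. Mup20 reached 0.571%, 2.43% and 10.7% of the mean fresh level in the 3 aggregates and was 19.9-fold lower on the summed level (log2 fold change -4.56, SE 0.84, edgeR FDR = 0.00242). Mup4 was 374-fold lower, Mup5 436-fold, Mup21 614-fold and Mup3 1246-fold. Mup18, with 1 count, was 20001-fold lower (exact 95% counting interval 3589 to 790074). Mup20 made up 64.2%, 93.7% and 92.1% of the counts of the 6 genes in aggregates, a larger share than in any FH library, where the UMI limit lowers it. Since fresh counts of Mup20 stand at the UMI limit, its fold against FH is compressed, and the UMI-corrected mean was 1.19% of the fresh level against 4.57% uncorrected. Of the other 15 Mup rows, 10 had no count in the aggregates and 14 had a sum of at most 3. The highest count was 6 (Mup6), and Mup15, Mup14 and Mup1, the highest of them in FH, had at most 1 count per aggregate.

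**Figure D4:**
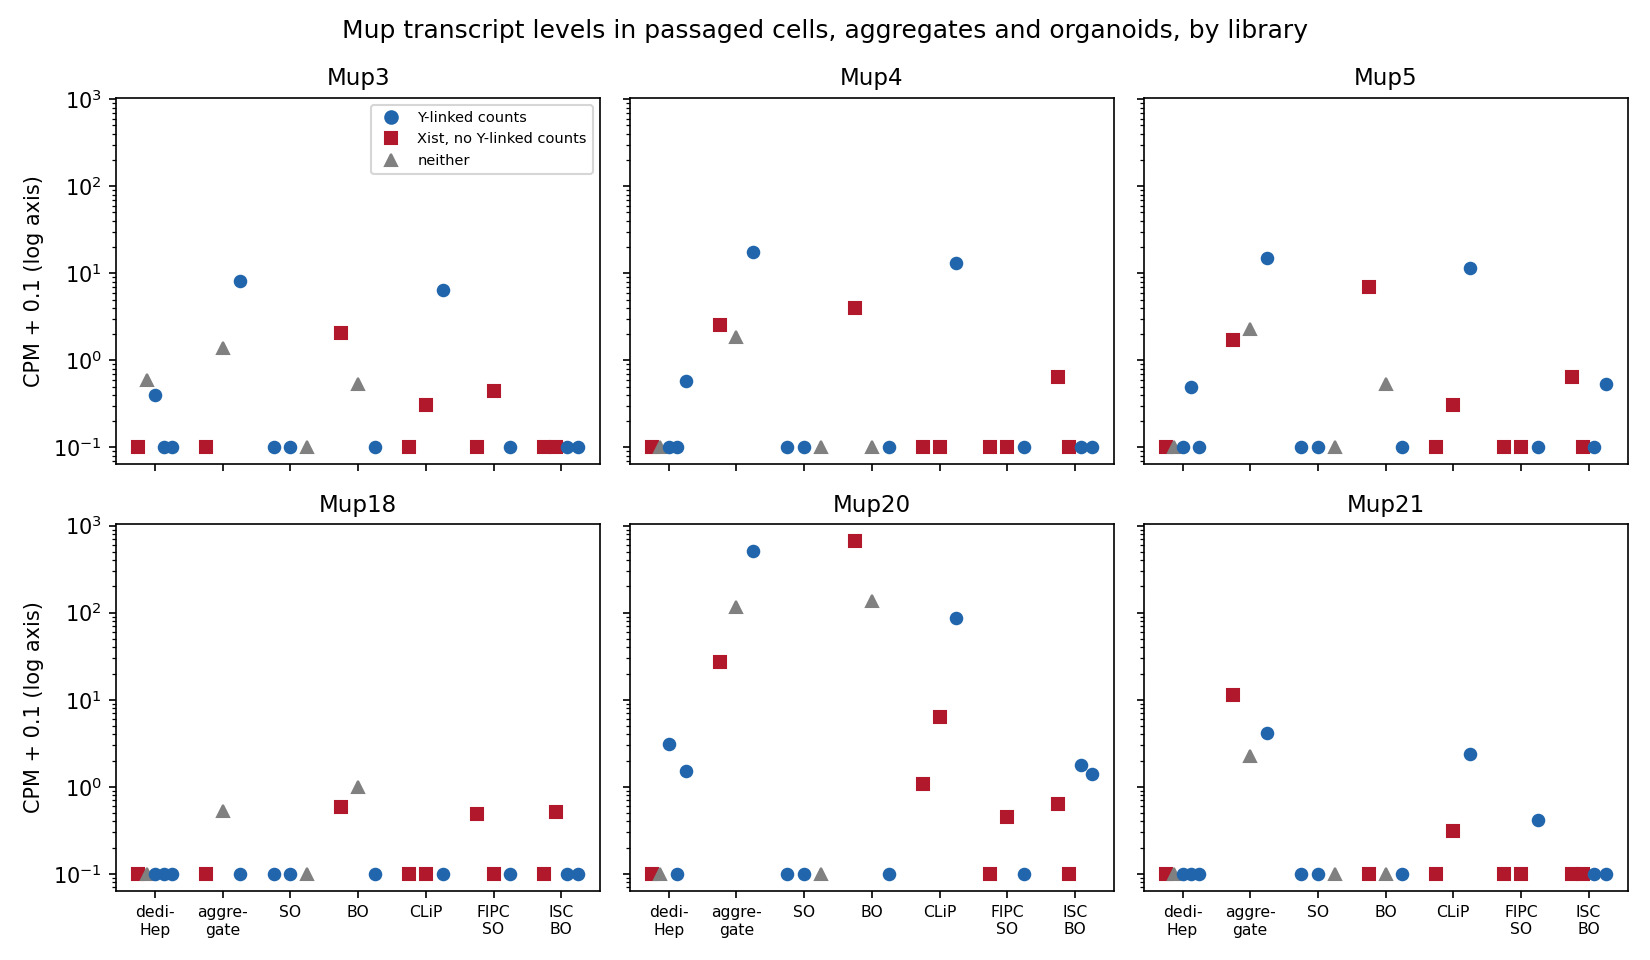
CPM plus 0.1 (vertical axis, log scale) of each Mup gene in dediHeps, aggregates, SOs and BOs of dediHeps, CLiPs, FIPC-SOs and ISC-BOs; each point is a library, and its shape and colour give the sex-linked transcripts it holds. Mup20 lies at 27.4 to 515 CPM in aggregates and above 100 CPM in 2 of 3 BOs, and Mup18 stays under 1 CPM throughout.

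SOs of dediHeps had no count of any of the 6 genes in 3 libraries, which is at least 11528-fold below FH for Mup20. In BOs of dediHeps Mup20 had 1372, 306 and 0 counts (665, 135 and 0 CPM), so that 1 library was above every aggregate, 1 within their range and 1 at 0. In the first of these Mup3 had 4 counts, Mup4 8 and Mup5 14, and Mup20 made up 98.1% of the counts of the 6 genes there and 98.7% in the second. BOs of dediHeps had no count of Alb or Tat. Their hepatocyte marker sum was 1251 to 1822 CPM, against 1458 to 1935 CPM in ISC-BOs, which come from intestine. The intestinal marker sum of the BOs of dediHeps was 2965 to 3445 CPM. The sum of 6 stellate cell and fibroblast markers (Des and Reln at 0) was 144 and 199.8 CPM in the 2 libraries with Mup20 and 2.5 CPM in the one at 0. The BO library at 0 carries Y-linked counts, the one at 1372 Xist, and the one at 306 at most 1 count of either. The part of these differences in the Mup20 levels was not tested.

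CLiPs had 2, 30 and 194 counts of Mup20 (0.986, 6.3 and 87.7 CPM), and replicate 3 also held 29 counts of Mup4, 25 of Mup5, 14 of Mup3 and 5 of Mup21. The first CLiP library lay within the range of the dediHeps and the others above it. Replicate 3 is the CLiP library with Y-linked counts, and its hepatocyte marker sum was the highest of the 3, at 8502 CPM against 1864 and 2001. None of the 6 genes passed the low-count filter in CLiPs against dediHeps, where 1.65% of 11567 genes were called higher, so the main test gives none. Without a low-count filter Mup20 (4.93, edgeR FDR = 0.0245) and Mup5 (4.85, edgeR FDR = 0.0891) were called higher, against 2.11% of all genes. With all 49 libraries in 1 fit 5 members were (4.53% of all genes), and with Y-linked libraries alone, CLiP replicate 3 against 3 dediHeps, Mup20 was (0.970% of all genes). FIPC-SOs had at most 1 count of any member per library. ISC-BOs had 1, 0, 4 and 3 counts of Mup20 and at most 1 count of any other member per library.

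Verteporfin, which blocks Yap from binding TEAD factors, was compared with its solvent DMSO after 1 week. Mup20 was at 7.76 and 19.8 CPM with verteporfin and at 11.9 and 16.8 CPM with DMSO, and the groups overlapped. Mup3 was at 40.8 and 65.7 against 58.0 and 48.7 CPM. Log2 fold changes of the 5 members tested lay between -0.22 (Mup18, SE 0.35) and 0.52 (Mup5, SE 0.43), with a lowest edgeR FDR of 0.764. None was called by edgeR or DESeq2, and none had an unadjusted p under 0.05, against 0.269% of 10400 genes called in either direction. With n = 2 per group, SEs of 0.32 to 0.47 on the log2 scale mean that changes of the size seen could not be told from none.

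Set beside the untreated cells of the same age, Mup20 differed from the other members. Its mean was 128 CPM in untreated cells and 14.3 CPM with DMSO, 8.9 times as high, and no untreated library (93.2 CPM or more) overlapped the DMSO libraries. How many of all genes separate these groups was not counted. Mup4, Mup5, Mup3 and Mup18 were at 1.31, 1.13, 0.823 and 0.741 times the DMSO level. The hepatocyte marker sum was 2238 to 4097 CPM in untreated cells and 5009 to 5031 CPM with DMSO. The untreated libraries carry Y-linked counts and the DMSO and verteporfin libraries Xist, so DMSO, the sex-linked difference and the culture series cannot be told apart, and no test was made.

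**Figure D5:**
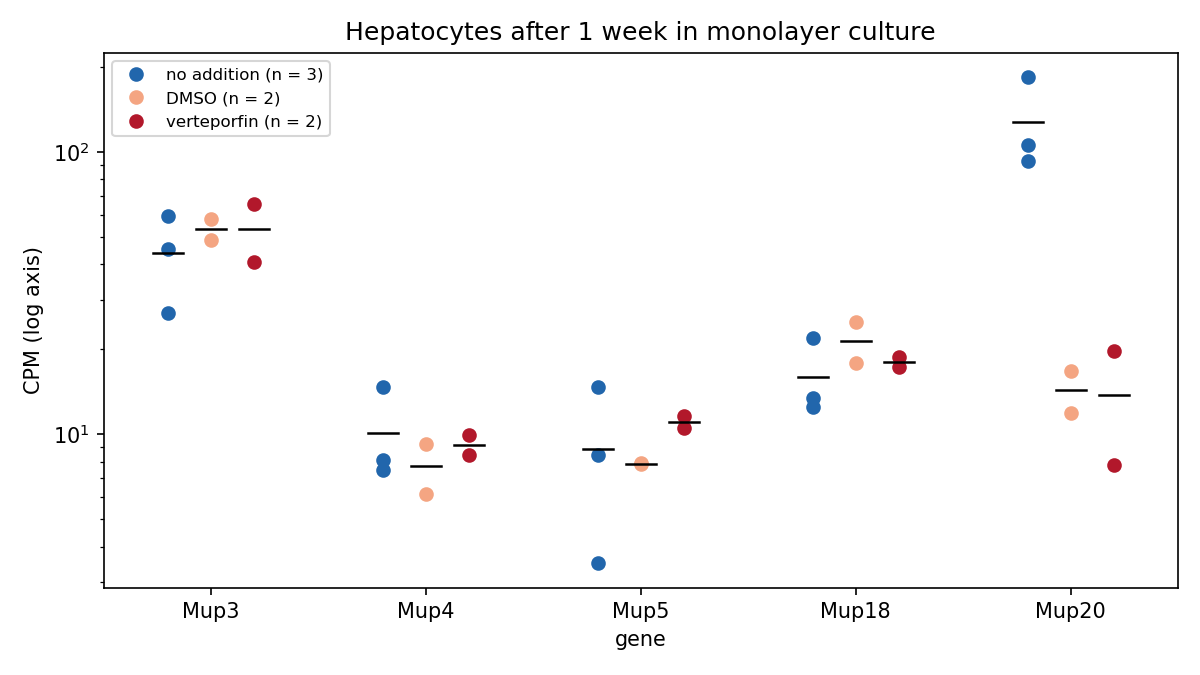
CPM (vertical axis, log scale) of 5 Mup genes in hepatocytes after 1 week in monolayer culture without addition, with DMSO or with verteporfin; points are libraries and bars their means. Mup20 lies at 93.2 to 184 CPM without addition and at 7.76 to 19.8 CPM with either addition, whereas the other 4 genes overlap.

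Over the 16 group means, the genes outside the Mup family whose pattern was most like the mean of the 6 (Pearson r of log2(CPM + 1), 8754 genes compared, given as a description because the groups share donors and depth) were Gm13775 (r = 0.966), Lpgat1 (0.963), Cyp2r1 (0.959), Dmgdh (0.955) and Srgn (0.948). Gm13775 is a transcript on the plus strand inside the Mup cluster, and reads of the cluster may be shared with it. Lpgat1 encodes an acyltransferase, Cyp2r1 a vitamin D 25-hydroxylase, Dmgdh a mitochondrial enzyme of choline breakdown and Srgn the proteoglycan serglycin of blood cells. In aggregates Gm13775 was at a mean of 3.49 CPM and Dmgdh at 0.

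Related genes were described as lists. Of 12 male-biased liver genes, the class to which the Mups belong, 10 were called lower than FH at 1 day, against 10.9% of all genes (median log2 fold change -3.31, against -0.03 for all genes and -1.36 for the 6 Mups). The 3 female-biased genes tested, of 9, were called lower at 1 day as well, Acot3 (-7.04, SE 1.02), Cyp3a41a (-4.37, SE 0.82) and Cyp3a44 (-3.19, SE 1.05). All 12 male-biased genes were called lower at 4 days, at 1 week and in dediHeps, as were all 6 Mups. The shares of all genes called lower were 12.4%, 12.8% and 12.6%, in that order. Elovl3 and Hsd3b5 had no count in dediHeps. They passed the low-count filter there through FH alone, and a gene kept in that way had to differ. The same may hold for other genes of this list in dediHeps, and this was not counted. At 1 day the 4 genes with the largest changes were Elovl3 (-6.98), a fatty acid elongase, Hsd3b5 (-5.83), a steroid dehydrogenase, Nudt7 (-5.14) and Slco1a1 (-4.57), an organic anion transporter. In aggregates against dediHeps 7 of the 12 passed the low-count filter and 5 of these were called higher, against 4.39% of all genes, while Elovl3 and Hsd3b5 had no count in any aggregate. Among the 5 were Cyp2d9 (5.72, SE 0.98, edgeR FDR = 0.00487), a steroid hydroxylase, and Cyp4a12a (5.23, SE 1.04, edgeR FDR = 0.0101), a fatty acid hydroxylase. Both female-biased genes tested were also called higher, Acot3 (3.45, SE 0.81, edgeR FDR = 0.0202) and Cyp2b9, which had no count in the monolayers. Cyp2b9 passed the low-count filter through its aggregate counts, and a gene kept in that way had to differ. The same may hold for other list genes tested in aggregates, and this was not counted.

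Among 8 tested lipocalins other than Mups, 1 was called higher than FH at 1 day, Lcn2 (6.85, SE 0.49, edgeR FDR = 2.07e-09), an iron-siderophore carrier of acute inflammation, and none lower. At 1 week 7 of the 8 were called lower (median -5.94), against 12.8% of all genes, among them the plasma carriers Orm1 (-9.84, SE 0.67) and Orm2 (-9.14, SE 0.58). In aggregates 5 of the 8 were called higher than in dediHeps, against 4.39% of all genes, and none lower, among them Orm2 (6.14, SE 1.2), Orm1 (6.00, SE 1.08) and C8g (4.72, SE 0.76), a complement subunit.

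Of 9 tested genes of growth hormone signalling, 3 were called lower at 1 day (10.9% of all genes), Igfals (-4.42, SE 0.51), a carrier subunit of IGF1, Ghr (-3.36, SE 0.31), the receptor, and Bcl6 (-2.34, SE 0.52), a repressor, and the median was -0.95. In dediHeps Igf1 (-10.08), Igfals (-7.21) and Ghr (-3.56) were called lower and Jak2 (2.03), the receptor's kinase, higher. In aggregates against dediHeps the feedback inhibitors Socs2 (-3.46, SE 0.64) and Cish (-2.93, SE 0.95) were called lower and none of 7 higher. Ghr was at 1.51 (SE 0.36, edgeR FDR = 0.0232), under the fold threshold.

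Of 12 liver transcription factors and hormone receptors, 3 were called lower at 1 day (10.9% of all genes), Onecut1 (-6.50, SE 0.53), Cebpa (-3.96, SE 0.35) and Thrb (-2.26, SE 0.37), a thyroid hormone receptor. The same 3 were called lower at 1 week and in dediHeps. In aggregates Thrb (2.51, SE 0.58) and Foxa3 (2.17, SE 0.62) were called higher than in dediHeps, 2 of 9 tested (4.39% of all genes).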

How the data were processed

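RNA of 49 libraries was measured by CEL-Seq2. The authors deposited 1 table of UMI counts per Ensembl gene, made with the celseq2 pipeline. The submitters' processing notes name bcl2fastq 2.20, Bowtie2 2.3.1, HTSeq 0.6.0 and GRCm38. The annotation release and the handling of reads that match several genes are not given in the sources used here. All columns were mapped to samples by their labels (0 left over), and 45143 of 46078 identifiers matched a symbol. Totals were 861047 to 3872936, and 3 counts are 0.775 to 3.48 CPM. Intervals (exact, 95%) and floors cover counting error only.

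Differences were tested in R 4.3.3 with edgeR 4.0.16 (filterByExpr, TMM, quasi-likelihood F test, Benjamini-Hochberg over all genes tested) and called where the FDR was below 0.1 and the change exceeded 2 on the log2 scale. The 7 groups of the time course entered 1 fit, and each other comparison had its own 2 groups. SE is the absolute log2 fold change divided by the square root of F. CPM used TMM factors over all libraries. UMI-corrected counts are -K ln(1 - n/K) with K = 4096. Single levels of aggregates and monolayers were compared by an exact permutation test. The procedure was tested on simulated data.

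Alternatives were RLE size factors, the library total alone, no low-count filter, DESeq2 1.42.0, UMI-corrected counts, all libraries in 1 fit, the FDR alone, a replicate block and leaving out each replicate. Fits restricted to libraries with Y-linked counts were added after seeing the data. Title replicate numbers of the time course gave r of deviations of -0.612 to 0.448 against FH over 18 pairs, which does not settle whether the samples are paired. The 3 h columns carry other label numbers than the FH columns, and other pairs of times were not compared. Culture names in the labels paired 3 aggregates with 3 monolayers (r 0.184 to 0.356).

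The 6 genes and the gene lists were chosen with earlier results of these data known. Beyond the members, the text names the 3 other Mups highest in FH, the 5 genes whose group means correlate best with the members, and up to 4 genes per list with the largest changes. Sequences came from GENCODE M21 and RefSeq.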

Additional observations from a re-analysis of the deposited data

Results flagged for a closer look

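A single library stood apart from the rest of its group in 4 of the 8 sets of values in groups of 4 or 5 libraries tested with Dixon's criterion, which nominally flags about 1 group in 20 by chance. Each rests on 1 count in a group otherwise at 0. Such a group always meets the criterion, so that rate does not apply to these 4. Mup4 was at 0.473 CPM in dediHep replicate 5, and Mup5 was at 0.395 CPM in dediHep replicate 4. Mup4 was at 0.541 CPM in ISC-BO replicate 1, and Mup18 was at 0.418 CPM in ISC-BO replicate 2. All 4 lie at or under the level that a count of 0 allows.

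In organoids, which entered no test, some levels were above the limit that a count of 0 allows. BO replicate 1 of dediHeps held Mup20 at 665 CPM, Mup5 at 6.79, Mup4 at 3.88 and Mup3 at 1.94 CPM, and replicate 2 held Mup20 at 135 CPM. ISC-BO replicate 3 held Mup20 at 1.69 CPM, from 4 counts.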

How the results depend on the processing

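Counts of called members depended on the fold threshold, the scaling and the filter. Shares of all genes called under the same setting stand in parentheses. With the FDR alone, 1 of the 6 was called at 3 h (10.9%), 6 at 1 day (22.2%), 5 from 3 h to 1 day (26.2%), 1 from 1 to 2 days (3.75%) and 5 from 2 to 4 days (2.02%), and 0 were first called at 2 days, against 4. With the library total alone 0 were called (7.77%), and 0 first called, at 2 days. UMI-corrected counts gave 1 from 3 h to 1 day (13.3%) and 4 from 2 to 4 days (1.30%). All 49 libraries in 1 fit lost the calls of Mup20 at 4 days and from 4 days to 1 week, and that of Mup5 from 1 to 2 weeks. This fit gave 1 from 2 to 4 days (0.659%), 5 in aggregates (5.31%) and 5 in CLiPs (4.53%) against dediHeps. Without the low-count filter these last counts were 5 (3.75%) and 2 (2.11%). With Y-linked libraries only, each of these comparisons set 1 library against 3 dediHeps, where the lone library is assumed to vary like the others. No count of called members is given for them. Leaving out 1 replicate gave 3 to 4 at 2 days and first called there, 5 to 6 at 4 days and 1 to 4 from 2 to 4 days. The replicate block gave 3 from 2 to 4 days (1.25%) and the same counts elsewhere. In the time course the title numbers used for this block may not pair the samples.

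Changes of sign concerned differences that were not called. At 3 h Mup3 (0.04) was at -0.03 with the library total and -0.03 to 0.16 when 1 replicate was left out. Mup4 (-0.03) was at 0.01 with RLE and DESeq2 and -0.20 to 0.13. Mup5 (0.01) was at -0.06 with the library total, -0.02 with the replicate block and -0.14 to 0.15. Mup20 (-0.02) was at 0.01 with RLE and DESeq2, 0.36 with UMI-corrected counts and -0.11 to 0.10. Mup21 from 3 h to 1 day (-0.35) was at 0.40 with the library total and 0.01 with UMI-corrected counts, and from 1 to 2 weeks (0.43) at -1.55 to 1.94. For verteporfin, Mup3 (0.02) was at 0.00 with all libraries and -0.34 to 0.31, Mup18 (-0.22) at -0.45 to 0.03 and Mup20 (-0.03) at -0.84 to 0.47. The causes were not tested.

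The main limits are the 4096 UMI sequences, which compress fresh levels of Mup20 and Mup3, the shared ends of Mup4 with Mup5 and of Mup18 with Mup16, 2 libraries per verteporfin arm and counts near 0 from 2 weeks on.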
